A study of Mus musculus with 6 samples.

Results

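The genes of cellular iron uptake, storage and export were examined in intestinal crypt stem cells overexpressing the circular RNA circEZH2_005. They were 10 genes, taken by name from the 28752 rows of the deposited table: Tfrc, Slc11a2 and Cybrd1 for uptake, Fth1, Ftl1 and Ncoa4 for storage, Slc40a1 and Heph for export, and Aco1 and Ireb2 for regulation. Each name was on 1 row, and all 10 genes had enough counts to be tested. RNA sequencing compared 3 samples carrying the vector (genotype label WT) with 3 samples overexpressing circEZH2_005 from an adenovirus, a virus that delivers a gene without needing the cell to divide. The sample titles call the cells of both groups intestinal crypt stem cells. The study's methods start from Lgr5+ intestinal stem cells (ISCs) of Lgr5-GFP mice, in which a green fluorescent protein marks the cells expressing Lgr5. By these methods they are grown in IntestiCult medium as crypt-villus organoids, small cultured structures that hold several cell types of the gut lining. Both groups were labelled as given hypoxia/reoxygenation (H/R), which began 72 h after infection. Oxygen was held at 2% for 4 h, beside 93% N2 and 5% CO2. The study states that all its mice were male. It gives an age and background strain for the mice of its intestinal injury model, and neither separately for the Lgr5-GFP mice. The length of reoxygenation was not given in the sources used here, and no sample kept in normal oxygen was analysed here.

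A cell takes up iron bound to transferrin through the transferrin receptor, encoded by Tfrc, and the endosome then releases it into the cytosol through the divalent metal transporter encoded by Slc11a2. Iron that is not used is held inside ferritin, a shell of heavy (Fth1) and light (Ftl1) subunits, and leaves the cell through ferroportin (Slc40a1). The iron regulatory proteins, encoded by Aco1 and Ireb2, bind iron-responsive elements (IREs), RNA hairpins in the untranslated regions (UTRs) of these mRNAs, when iron is scarce. Binding in the 5′UTR blocks translation of ferritin and ferroportin, and binding in the 3′UTR protects the Tfrc mRNA from decay. In the gut, villus enterocytes absorb dietary iron with Slc11a2, the ferric reductase Cybrd1 and ferroportin, whereas dividing crypt cells rely on Tfrc.

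The hairpins are shown because they set these mRNAs apart by region: the Tfrc mRNA carried several in its 3′UTR, and the ferritin and ferroportin mRNAs carried 1 each in the 5′UTR. They were read from GENCODE M21 transcripts (GRCm38) by a search for CNNNNNCAGTGN in which all 5 bases between the C and the loop pair with the bases after the loop, G with T allowed. Each sequence below runs 5′ to 3′ on the mRNA strand over 30 bases, the 6-base loop is in capitals, and the bulged C is base 7.
Tfrc, 3′UTR, exon 19 of 19, chr16:32631219-32631248, plus strand: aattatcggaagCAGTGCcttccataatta
Tfrc, 3′UTR, exon 19 of 19, chr16:32631598-32631627, plus strand: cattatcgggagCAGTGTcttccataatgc
Tfrc, 3′UTR, exon 19 of 19, chr16:32631663-32631692, plus strand: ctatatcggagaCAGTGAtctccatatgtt
Tfrc, 3′UTR, exon 19 of 19, chr16:32631710-32631739, plus strand: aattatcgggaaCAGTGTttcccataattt
Fth1, 5′UTR, exon 1 of 4, chr19:9982732-9982761, plus strand: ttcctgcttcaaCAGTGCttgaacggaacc
Ftl1, 5′UTR, exon 1 of 4, chr7:45459778-45459807, minus strand: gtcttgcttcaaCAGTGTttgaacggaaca
Slc40a1, 5′UTR, exon 1 of 8, chr1:45925464-45925493, minus strand: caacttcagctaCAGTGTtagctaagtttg
Such a paired match was rare: 27 of 16578 genes with a 5′UTR (0.1629%) and 121 of 16860 with a 3′UTR (0.7177%) held one, whereas the letters alone, without pairing, were in 11.2% and 39.3%.

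The remaining 6 genes held no fully paired match. In Slc11a2, Heph, Ireb2 and Ncoa4 the letters of the motif were present in a UTR with incomplete pairing, and in Cybrd1 and Aco1 these letters were not found, which says nothing more of these mRNAs. With the loop widened to CAGNGN, matches were found in 0.6515% of genes with a 5′UTR and 1.9632% of those with a 3′UTR. The members holding a match were still 4, and Tfrc gained a further hairpin upstream of the others.
Tfrc, 3′UTR, exon 19 of 19, chr16:32631160-32631189, plus strand: atttatcagtgaCAGAGTtcactataaata
With 4 of the 5 pairs allowed, a setting chosen after the matches were seen, 4.6738% of genes with a 3′UTR held a match, and 1 was in the 3′UTR of a Slc11a2 transcript.
Slc11a2, 3′UTR, exon 16 of 16, chr15:100395152-100395181, minus strand: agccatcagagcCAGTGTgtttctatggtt
Slc11a2 and Slc40a1 are both known to be transcribed with and without their hairpin, and the deposited values are per gene, so these forms were not separated.

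The samples held between 71506487 and 79919893 counts, at which a count of 0 would allow up to 0.0377 to 0.0419 CPM (counts scaled to the size of the library, which was adjusted by the trimmed mean of M-values, TMM), counting error only. Nothing in the labels says that the 3 samples of a group came from separate cultures or mice, so p-values measure only the spread between these samples, which may be technical. The libraries were selected with oligo(dT), which captures polyadenylated RNA, and circEZH2_005 itself was not a row of the table, so its level was not checked here. Over 18348 genes tested, 674 (3.67%) had an adjusted p-value under 0.05 by the quasi-likelihood test of edgeR, 493 (2.69%) higher and 181 (0.986%) lower in the circEZH2_005 samples, with a median log2 fold change of 0. Limma on log2(FPKM + 1) gave 371 higher and 364 lower. The labelled cells were checked against their markers. All 5 stem cell markers were detected in every sample, beside enterocyte, goblet and Paneth cell markers at summed levels of 14390 to 28810, 4247 to 6544 and 2262 to 6287 CPM. Of the goblet cell markers 1 of 5 rose (Clca1, log2 fold change 0.76, edgeR adjusted p = 0.0433). At an unadjusted p-value under 0.05 (edgeR), 2 of them were higher and 1, Spink4, was lower (-0.28, edgeR adjusted p = 0.149). Of the Paneth cell markers 0 of 5 passed (1, lower, at an unadjusted p-value under 0.05). All 5 had a log2 fold change below 0, with a median of -0.59. Their sum was 3837, 3646 and 6287 CPM in the vector and 3082, 2262 and 3949 CPM in the circEZH2_005 samples. Lgr5 itself fell, from 16.1, 12.1 and 18.4 CPM to 8.55, 9.10 and 7.70 CPM (edgeR adjusted p = 0.0434). The leukocyte marker Ptprc was above Lgr5 in every sample, at 22.8 to 184.5 CPM, and the source of this RNA was not tested.

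The 10 iron genes spanned a wide range of levels, compared between genes in FPKM, fragments scaled by transcript length and depth. The ferritin subunits were the most abundant, with 408.5 ± 11.3 FPKM for Ftl1 and 317 ± 31.6 FPKM for Fth1 (mean ± SD, n = 6). Tfrc followed with 63.2 ± 35.1 FPKM, and then Aco1 with 40.1 ± 2.45 FPKM and Heph with 35.7 ± 5.85 FPKM. Ireb2, Ncoa4 and Slc11a2 lay together at 13.3, 11.4 and 10.1 FPKM. Slc40a1 had 6.28 ± 1.58 FPKM, and Cybrd1 was the lowest with 0.843 ± 0.443 FPKM. Of the 9 neighbouring pairs in this order, 4 did not overlap in any of the 6 samples: Ftl1 with Fth1, Fth1 with Tfrc, Heph with Ireb2, and Slc40a1 with Cybrd1. The other pairs overlapped when the 2 groups were pooled, and this pooled spread, like the SD of Tfrc, also holds any difference between the groups. In the vector samples alone, every Tfrc value (66.7 to 112.2 FPKM) was above every Aco1 value (37.1 to 42.1 FPKM). Aco1 was in turn above Heph there (32.4 to 36.8 FPKM). Tfrc ranked 3 in the vector samples and 5 in the circEZH2_005 samples.

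**Figure D1:**
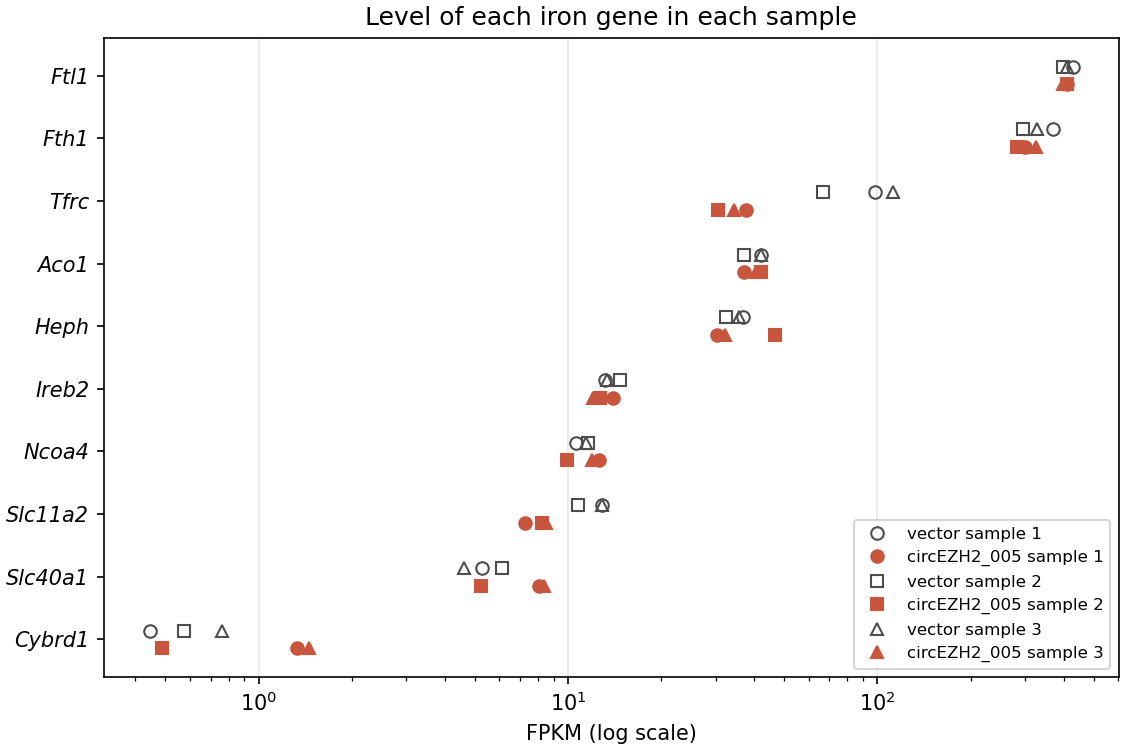
Level of each iron gene in FPKM (log axis), with 1 point per sample, open for vector and filled for circEZH2_005 and shaped by sample number. Ftl1 and Fth1 lie above all other genes, Cybrd1 lies below them, and only Tfrc and Slc11a2 have their 2 groups apart in these values.

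Among the 10 genes, 1 fell and 0 rose at an adjusted p-value under 0.05 (edgeR), beside 0.986% lower and 2.69% higher over all genes. At an unadjusted p-value under 0.05, 2 were lower (Tfrc, Slc11a2) and 2 were higher (Slc40a1, Cybrd1), beside 9.72% lower, 14.0% higher and 23.7% in either direction over all genes. Of these 1 (Tfrc) also passed a fold change over 2 or under 0.5, beside 7.56% of all genes. The groups did not overlap in CPM for 2 genes, Tfrc and Slc11a2, beside 30.6% of all genes, so that this count stands below the background. The median log2 fold change of the 10 genes was 0.07, with 6 genes above and 4 below 0.

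**Figure D2:**
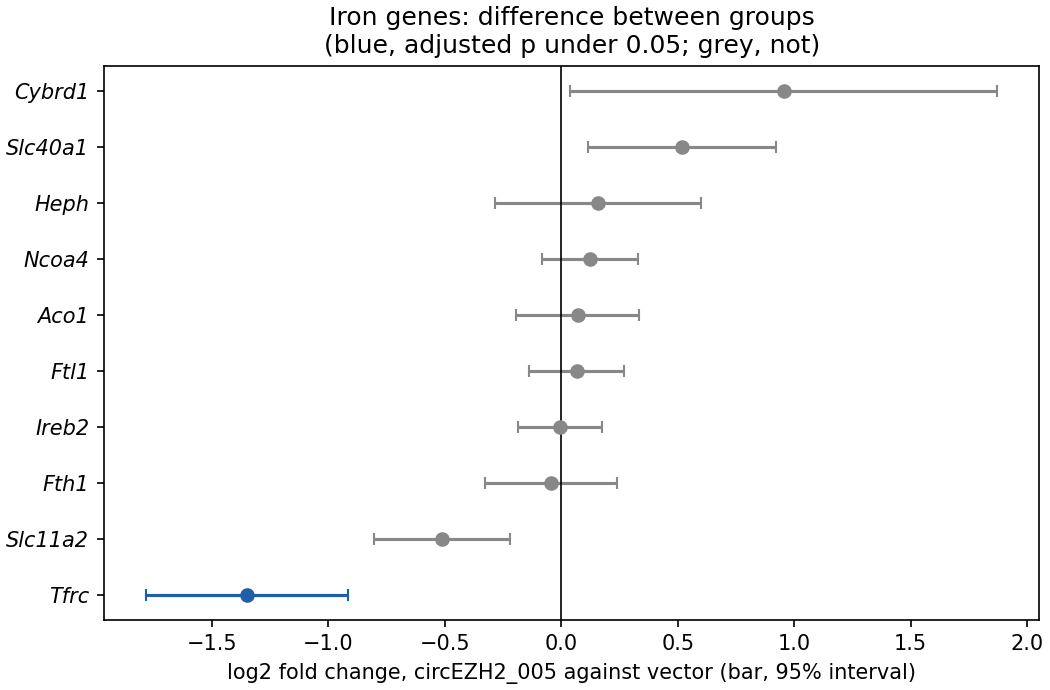
Log2 fold change of each iron gene, circEZH2_005 against vector, with its 95% interval (n = 3 samples per group). Tfrc, at -1.35, is the only gene of the 10 past an adjusted p-value of 0.05, the interval of Slc11a2 lies below 0, and those of Slc40a1 and Cybrd1 lie above it.

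Among the uptake genes, the transferrin receptor mRNA fell and the endosomal and brush border partners differed in opposite directions without passing the adjustment. Tfrc (ENSMUSG00000022797, chromosome 16, 32608920 to 32632794, plus strand), whose mRNA holds the row of 3′UTR hairpins above, had 664.6, 440.5 and 748.5 CPM in vector samples 1 to 3 and 249.4, 226.7 and 251.6 CPM in circEZH2_005 samples 1 to 3. The 3 vector samples were spread, with sample 2 the lowest, the 3 circEZH2_005 samples lay close together, and the groups did not overlap. The mean went from 618 ± 159 to 243 ± 13.8 CPM (SD, n = 3). The log2 fold change was -1.35 (standard error, SE, 0.19, 95% interval -1.78 to -0.92, edgeR adjusted p = 0.0203), 2.55-fold lower. These rest on 32911 to 58582 counts per vector sample and 16870 to 19832 per circEZH2_005 sample, so the spread between samples, not counting, limited the precision.

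The direction of Tfrc held under all 14 alternatives, between -1.54 and -1.19, and 10 of them passed the adjustment (adjusted p from 1.51e-11 to 0.0969). All 4 that missed it left out a sample: without vector sample 1 the adjusted p-value was 0.0969 (log2 fold change -1.30), without vector sample 3 it was 0.0880 (-1.19), without circEZH2_005 sample 2 it was 0.0899 (-1.30) and without circEZH2_005 sample 3 it was 0.0574 (-1.38). The call held without vector sample 2 (-1.54, adjusted p = 0.00179) and without circEZH2_005 sample 1 (-1.37, adjusted p = 0.0303). In bulk samples such as these, fewer cells of a type and less RNA per cell cannot be told apart.

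Tfrc is abundant in dividing cells, and the 5 proliferation markers gave 0 calls, with log2 fold changes of -0.15 to 0.08 and a summed level of 1226 to 1388 CPM in the vector and 1164 to 1513 CPM in the circEZH2_005 samples. Of the 5 stem cell markers, 2 fell, Lgr5 (log2 fold change -0.88) and Smoc2 (-0.81, edgeR adjusted p = 0.0203). Axin2 alone was above 0 (0.31, edgeR adjusted p = 0.219). The summed level of the 5, mostly Olfm4, was 1624 to 2481 CPM in the vector and 1130 to 1697 CPM in the circEZH2_005 samples. Erythroid cells also carry much transferrin receptor: of their 7 markers 5 were tested and 0 called (-1.07 to -0.28), the sum was 18.4 to 32.3 against 8.96 to 20.9 CPM, and Epor was at or near 0. Activated leukocytes carry it too, and those markers moved the other way. Of 5, 1 rose (Itgax, 1.86, edgeR adjusted p = 0.0362), and their sum went from 29.9, 102 and 41.9 to 248, 190 and 136 CPM. At an unadjusted p-value under 0.05 (edgeR), stem cell markers gave 3 lower (Lgr5, Smoc2, Ascl2), erythroid markers 2 lower and leukocyte markers 3 higher. In these lists 0 went the other way, and the shares over all genes were 9.72% lower and 14.0% higher. The part of these cells in the result was not tested.

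Slc11a2 (ENSMUSG00000023030, chromosome 15, 100387898 to 100424092, minus strand), the divalent metal transporter, had 90.0, 73.2 and 88.3 CPM in the vector and 49.7, 62.7 and 63.8 CPM in the circEZH2_005 samples. Every circEZH2_005 sample was below every vector sample, the nearest being circEZH2_005 sample 3 and vector sample 2. The means were 83.8 ± 9.28 and 58.8 ± 7.83 CPM (SD, n = 3), and the log2 fold change of -0.51 (SE 0.13, 95% interval -0.81 to -0.22) did not pass the adjustment (edgeR adjusted p = 0.0651). It was past the threshold in 4 of 14 alternatives, DESeq2 (adjusted p = 0.00619), both limma fits (adjusted p = 0.0361 and 0.0367) and edgeR without vector sample 2 (adjusted p = 0.0308). The range over all of them was 0.00619 to 0.202, and the direction did not change. The gene overlaps Gm5475 on the other strand, which had at most 42 counts in a sample.

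Cybrd1 (ENSMUSG00000027015, chromosome 2, 71117923 to 71142926, plus strand), a ferric reductase of the enterocyte brush border, had 2.62, 3.28 and 4.38 CPM in the vector and 7.66, 3.12 and 9.17 CPM in the circEZH2_005 samples. Samples 1 and 3 with circEZH2_005 were above all vector samples, whereas sample 2 lay within the vector range. The log2 fold change was 0.95 (SE 0.39, 95% interval 0.04 to 1.87), which did not pass the adjustment (edgeR adjusted p = 0.194) here or in any of the 14 alternatives (0.0632 to 0.420). With 190 to 657 counts per sample, Cybrd1 rested on the fewest counts of the 10 genes.

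**Figure D3:**
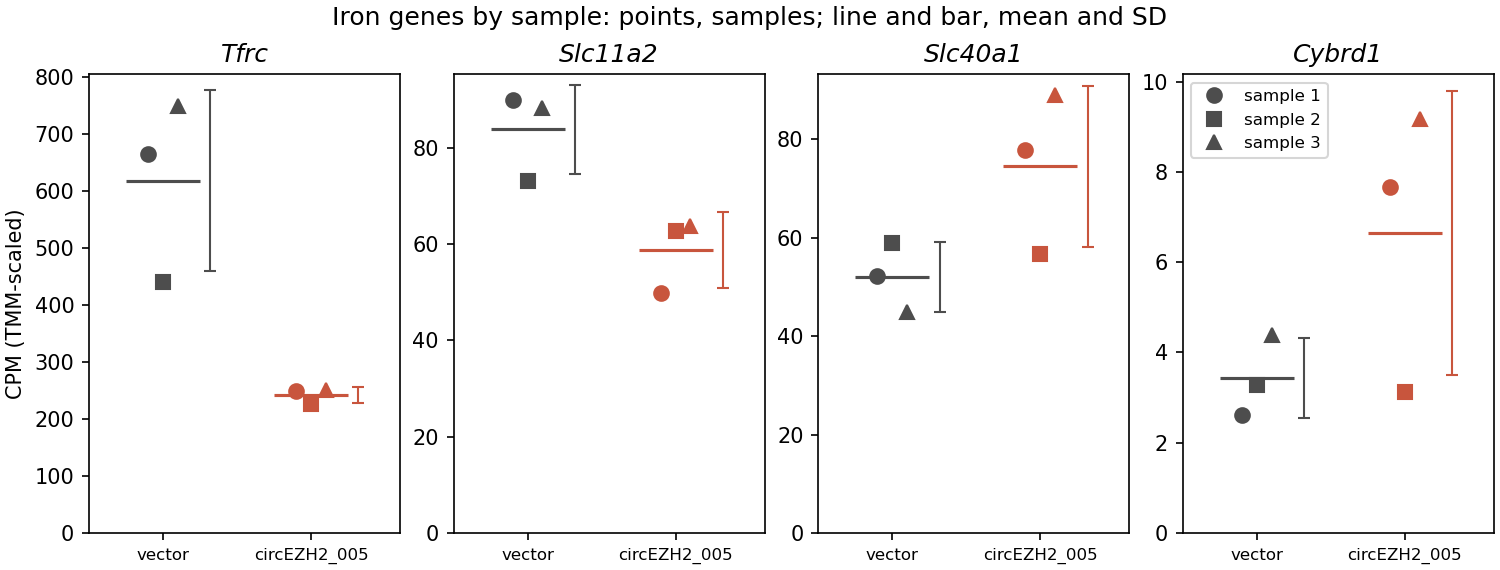
CPM (TMM-scaled) of the 4 iron genes with an unadjusted p-value under 0.05, by group, with 1 point per sample, a line at the mean and a bar of 1 SD to each side (n = 3). The groups are apart for Tfrc and Slc11a2, and circEZH2_005 sample 2 lies among the vector samples for Slc40a1 and Cybrd1.

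The ferritin mRNAs differed little between the groups. Fth1 (ENSMUSG00000024661, chromosome 19, 9980598 to 9985092, plus strand), the subunit that oxidises iron, had 1409, 1093 and 1230 CPM in the vector and 1113, 1176 and 1328 CPM in the circEZH2_005 samples. The groups overlapped over most of their range, and the log2 fold change of -0.05 (SE 0.12) had a 95% interval of -0.33 to 0.24 (edgeR adjusted p = 0.866). Ftl1 (ENSMUSG00000050708, chromosome 7, 45457944 to 45459884, minus strand), the subunit that favours the mineral core, had 629, 568 and 593 CPM in the vector and 588, 660 and 627 CPM in the circEZH2_005 samples. These overlapped as well, with a log2 fold change of 0.07 (SE 0.09, 95% interval -0.14 to 0.27, edgeR adjusted p = 0.707). Both intervals exclude a change of the size of that of Tfrc. Their hairpins act on translation, which mRNA counts do not measure.

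Ferritin is built of both subunits, so their ratio was taken within each sample in FPKM. Fth1 to Ftl1 was 0.866, 0.743 and 0.801 in the vector and 0.732, 0.689 and 0.818 in the circEZH2_005 samples. The ratio overlapped between the groups, and the means of 0.803 ± 0.0612 and 0.746 ± 0.0660 (SD, n = 3) differed by -0.0569 (two-sided exact permutation p = 0.4, where 0.1 is the smallest that 3 against 3 can give). Ferritin pseudogenes can share reads with these genes. The table held 4 other ferritin-named rows, of which Ftl1-ps1 was the most abundant with 535 to 737 counts, against 42456 to 49078 for Ftl1. Of these rows 2 were tested, and 0 passed (edgeR, 0 also at an unadjusted p-value under 0.05).

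Ncoa4 (ENSMUSG00000056234, chromosome 14, 32159865 to 32179855, plus strand) encodes the receptor that delivers ferritin to the lysosome, where its iron is released. It had 109, 116 and 115 CPM in the vector and 127, 112 and 133 CPM in the circEZH2_005 samples. Samples 1 and 3 with circEZH2_005 were above the vector range and sample 2 was inside it. The log2 fold change was 0.12 (SE 0.09, 95% interval -0.08 to 0.33, edgeR adjusted p = 0.448).

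Of the export genes, neither passed the adjustment. Slc40a1 (ENSMUSG00000025993, chromosome 1, 45908068 to 45926523, minus strand), which encodes ferroportin, had 52.3, 59.0 and 44.8 CPM in the vector and 77.7, 56.7 and 89.0 CPM in the circEZH2_005 samples. Samples 1 and 3 with circEZH2_005 were above every vector sample, and sample 2 was below vector sample 2. The means were 52.0 ± 7.07 and 74.5 ± 16.4 CPM (SD, n = 3), with a log2 fold change of 0.52 (SE 0.17, 95% interval 0.11 to 0.92, edgeR adjusted p = 0.126). DESeq2 put it past the threshold (adjusted p = 0.0374), which was 1 of 14 alternatives (0.0374 to 0.333). Ferroportin is also abundant in macrophages. Of 9 macrophage markers 7 were tested and 0 called, with log2 fold changes of 0.18 to 1.20 and summed levels of 15.5, 26.7 and 16.5 CPM in the vector and 37.0, 16.1 and 26.2 CPM in the circEZH2_005 samples. Cd163 and Marco were at or near 0. Lyz2 made up much of these sums. Among the circEZH2_005 samples, Lyz2 and Slc40a1 were both lowest in sample 2 and highest in sample 3. Adgre1 and C1qb were also lowest in sample 2, whereas Csf1r, Cd68, C1qa and C1qc were lowest in sample 3. Sample 1 was the highest for Adgre1, C1qa, C1qb, C1qc and Csf1r, and sample 2 for Cd68, so only Lyz2 followed Slc40a1. The Paneth cell marker Lyz1 had the same order as Lyz2. The part of macrophage RNA was not tested.

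Heph (ENSMUSG00000031209, chromosome X, 96455359 to 96574485, plus strand) encodes hephaestin, the ferroxidase that works beside ferroportin on the enterocyte's basolateral side. It had 310, 265 and 296 CPM in the vector and 250, 428 and 292 CPM in the circEZH2_005 samples. Sample 2 with circEZH2_005 stood above the rest and the other 2 lay within or below the vector range. The log2 fold change was 0.16 (SE 0.19, 95% interval -0.29 to 0.60, edgeR adjusted p = 0.674), and it was -0.10 without circEZH2_005 sample 2. That sample also had the highest summed enterocyte markers, 28810 CPM, against 15200 and 22010 CPM in the other circEZH2_005 samples and 14390 to 16660 CPM in the vector samples. Of the 8 enterocyte markers 1 rose (Apoa4, log2 fold change 0.91, edgeR adjusted p = 0.0279) and 0 fell. At an unadjusted p-value under 0.05 (edgeR), 6 were higher and 0 lower, beside 14.0% and 9.72% of all genes. Their median log2 fold change was 0.72, and the groups did not overlap for 5 of the 8, beside 30.6% of all genes. Fabp1 (-0.37) and Sis (-0.29) were below 0. The part of enterocytes in the values of Heph, and in those of Slc40a1 and Cybrd1, was not tested.

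The mRNAs of the iron regulatory proteins differed little between the groups. Ireb2 (ENSMUSG00000032293, chromosome 9, 54863789 to 54912530, plus strand), whose protein is degraded when iron is plentiful, had 137, 149 and 137 CPM in the vector and 142, 144 and 135 CPM in the circEZH2_005 samples. The groups overlapped, and the 95% interval of the log2 fold change ran from -0.18 to 0.18 (edgeR adjusted p = 0.982). Aco1 (ENSMUSG00000028405, chromosome 4, 40143081 to 40198338, plus strand), whose protein is an aconitase when it holds an iron-sulfur cluster and an RNA binding protein when it does not, had 208, 178 and 204 CPM in the vector and 179, 227 and 215 CPM in the circEZH2_005 samples. These overlapped too, with a log2 fold change of 0.07 (SE 0.11, 95% interval -0.20 to 0.33, edgeR adjusted p = 0.765). Both proteins are controlled after translation, so their mRNA does not measure their activity.

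**Figure D4:**
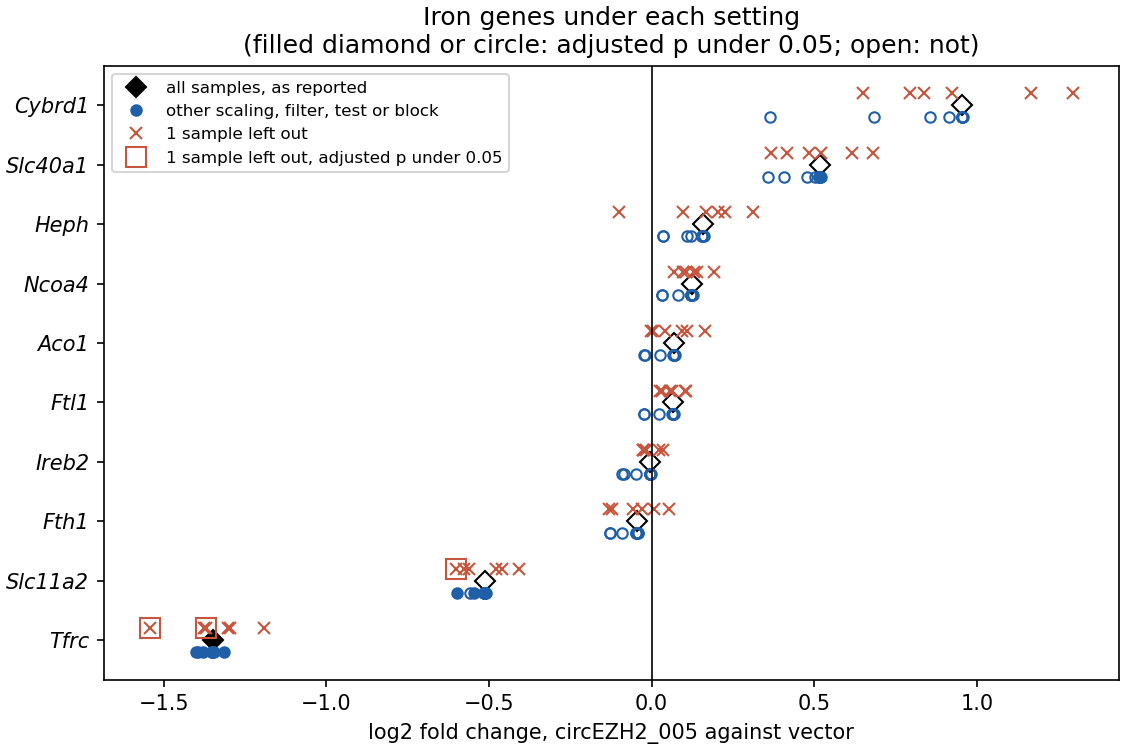
Log2 fold change of each iron gene with all samples (diamonds), under 8 other scalings, filters, tests or a replicate block (circles) and with 1 sample left out (crosses), filled or boxed where the adjusted p-value was under 0.05. Tfrc stays between -1.54 and -1.19, Slc11a2 between -0.60 and -0.41, and Heph, Aco1, Ftl1, Ireb2 and Fth1 lie on both sides of 0.

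The other genes of iron handling were taken from 4 lists. Among 22 tested genes of other iron and heme transport, 1 rose and 1 fell (edgeR), beside 2.69% and 0.986% of all genes, with a median log2 fold change of -0.12. Slc46a1, a folate transporter of the brush border that also carries heme, rose from 22.5 ± 2.63 to 40.7 ± 5.03 CPM (SD, n = 3; log2 fold change 0.86, SE 0.13, edgeR adjusted p = 0.0226), and passed in 9 of 14 alternatives, not without vector sample 1 (edgeR adjusted p = 0.109), vector sample 3 (0.111), circEZH2_005 samples 2 (0.0510) or 3 (0.0603), or with a replicate block (0.0625). Lcn2, a secreted protein that binds bacterial siderophores and is also an acute-phase gene, had a log2 fold change of -5.36 (SE 0.77), a fall with an edgeR adjusted p = 0.0214, and vector sample 2, with 6.29 CPM, was well below vector samples 1 and 3 with 32.8 and 31.2 CPM. It passed in 11 of 14 alternatives, all but those without vector sample 1 (edgeR adjusted p = 0.0849), vector sample 3 (0.102) or circEZH2_005 sample 2 (0.101). Its log2 fold change ranged from -6.08, without circEZH2_005 sample 3, to -2.74, by limma on log2(FPKM + 1). At an unadjusted p-value under 0.05, 3 genes of this list were higher and 5 lower, beside 14.0% and 9.72% of all genes. Of the 8 enterocyte markers above, 6 were higher and 0 lower at that threshold, and the part of enterocytes in the values of Slc46a1 was not tested. Hpx, Scara5 and Hephl1 had too few counts to be tested.

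Among 15 tested genes of iron regulation, 0 rose and 1 fell (edgeR; 4 higher and 1 lower at an unadjusted p-value under 0.05), beside the same background, with a median log2 fold change of 0.07. Epas1, a hypoxia-inducible factor subunit known in the intestine as an activator of Slc11a2, Cybrd1 and Slc40a1, fell from 28.4, 23.4 and 26.0 CPM to 10.6, 12.3 and 15.4 CPM. The groups did not overlap, and the log2 fold change was -1.02 (SE 0.16, edgeR adjusted p = 0.0242), past the threshold in 9 of 14 alternatives, not without vector sample 1 (edgeR adjusted p = 0.111), vector sample 3 (0.121) or circEZH2_005 sample 2 (0.102), with a replicate block (0.0533) or with no filter on low counts (0.0510). Of the genes named as its targets, Slc11a2 was lower and Cybrd1 and Slc40a1 were higher, none past the adjustment, and a link to Epas1 was not tested. Hepcidin, the liver hormone that removes ferroportin from the membrane, is encoded by Hamp. Hamp and the related gene Hamp2 had at most 4 counts in any sample and were not tested.

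In heme synthesis and turnover 16 genes were tested, and 0 passed (edgeR; 2 at an unadjusted p-value under 0.05, beside 23.7% of all genes), with a median log2 fold change of -0.04. The outermost were Alas1, the first enzyme of heme synthesis, with 0.38 (edgeR adjusted p = 0.124), and Uros with -0.37 (adjusted p = 0.123). In iron-sulfur cluster assembly 27 rows were tested and 0 passed, with 1 higher and 9 lower at an unadjusted p-value under 0.05, beside 14.0% and 9.72% of all genes. Here 21 of 27 log2 fold changes were below 0 and the median was -0.14, beside 0 over all genes, and the groups did not overlap for 12 of the 27, beside 30.6% of all genes. Bola3, a mitochondrial assembly factor, was the lowest with -0.39 (SE 0.10, edgeR adjusted p = 0.0745), from 26.4 ± 2.05 to 20.1 ± 1.48 CPM (SD, n = 3). The highest, at 0.50 (SE 1.18), was a second row of Ndor1, a gene whose reads are divided over 3 rows and whose values are therefore uncertain.

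**Figure D5:**
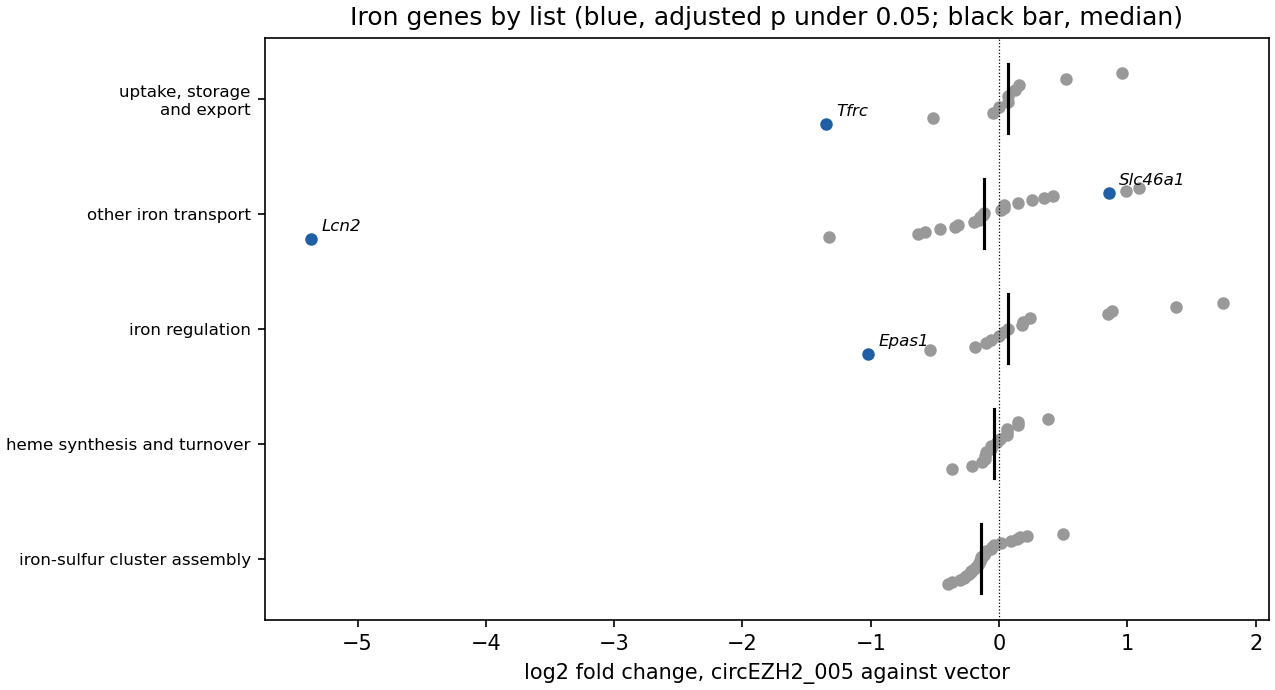
Log2 fold change of every tested row of the 10 genes and of the 4 wider iron lists, with 1 point per row, blue where the adjusted p-value was under 0.05, and a black bar at each list's median. The 4 blue points are Tfrc, Lcn2, Epas1 and Slc46a1, and most points of the iron-sulfur list, 21 of 27, lie below 0.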

How the data were processed

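RNA sequencing was measured in 3 vector and 3 circEZH2_005 samples, grouped by their titles. The columns headed NC were assigned to the vector samples by number, since the series has no further control. The authors deposited, for every gene, the count of reads in each sample, not normalized, and its FPKM, with 0 columns of sample values left unused here. The submitters' processing notes name cutadapt 1.9, HISAT2 2.0.4, StringTie 1.3.4d, DESeq2 and the mm10 build; the annotation and strand setting are not given in the sources used here. Positions are those of the table (mm10, also called GRCm38).

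Counts were filtered with filterByExpr, scaled with TMM and compared with edgeR 4.0.16 (quasi-likelihood test, no covariate, R 4.3.3), with Benjamini-Hochberg adjustment over all 18348 genes. SEs were derived from the log2 fold change and the F statistic. The ferritin ratio was compared with an exact permutation test. Alternatives were DESeq2 1.42.0, limma 3.58.1 on log2(FPKM + 1) or log2(FPKM + 0.1) with a minimum mean of 0.5 FPKM, median-of-ratios and upper-quartile scaling, no filter, a mean of at least 10 counts, a replicate block and each sample left out. In a simulation with 200 altered genes (log2 change 1.5) out of 17713 tested, edgeR found 82.5%, and 9.84% of its calls were unchanged genes. DESeq2 found 91.5% with 31.2% of calls unchanged (18348 genes). No 2 libraries were alike: 0.767% to 1.28% of genes with a mean of at least 10 counts had the same count in a pair.

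The members, lists and markers were chosen with earlier results of these data known. Named were all 10 members, every called gene of a wider list (the outermost in each direction where none was called), Lgr5, and called markers. Markers near 0, other markers that were not called, Hamp, Hamp2, Hpx, Scara5, Hephl1 and Alas2 were named after their values were seen. IREs were searched in both UTRs of GENCODE M21 coding transcripts, on the transcript strand.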

Additional observations from a re-analysis of the deposited data

How the results depend on the processing

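The number of genes passing depended on the fit. Against 493 higher and 181 lower, DESeq2 gave 1574 and 698, no filter 132 and 37, limma 371 and 364 (pseudocount 1) or 323 and 319 (0.1), so that the higher share went from 73.1% to 50.5% or 50.3%. Upper-quartile scaling gave 437 and 247. Leaving out 1 sample gave 26 to 1098 higher and 2 to 334 lower.

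Among the 10 iron genes, DESeq2 gave 1 higher (Slc40a1) and 2 lower, both limma fits 2 lower (Tfrc, Slc11a2) and leaving out 1 sample 0 to 2 lower, 1 to 2 past the fold of 2 and 0 higher. For the wider lists (1 higher, 2 lower), no filter gave 1 lower, DESeq2 6 higher and 4 lower, the replicate block 0 higher and 1 lower, and leaving out 1 sample 0 to 1 higher and 0 to 2 lower. Of the 10, 5 changed sign in some setting: Aco1 to -0.022 under both limma fits, Ftl1 to -0.022 and -0.023, and, with 1 sample left out, Aco1 (-0.0022 to 0.16), Fth1 (-0.13 to 0.052), Ireb2 (-0.027 to 0.036) and Heph (-0.10 to 0.31). Without 1 sample, the ferritin ratio differed by -0.0930 to -0.0258, and 4 to 5 neighbours in level stayed apart (chosen after seeing the data).

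Deviations of same-numbered samples correlated at -0.234, -0.039 and 0.0925. With 3 samples per group, these values cannot decide whether the replicate numbers pair the samples. With the replicate block 241 genes were higher and 36 lower, and Tfrc had -1.32 (edgeR adjusted p = 0.0253), while Slc46a1 (0.0625) and Epas1 (0.0533; 0.0510 with no filter) lost their calls. The cause of these shifts was not tested. With 3 samples per group, the spread between samples rather than depth limited all but the genes with few counts.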

Other observations

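Other genes with a fully paired IRE-type hairpin were read from the same search. In the 5′UTR there were 24 beside the members, among them Alas2, the erythroid enzyme of heme synthesis (log2 fold change -0.28, edgeR adjusted p = 0.848, at under 1 CPM). Of these, 23 were tested by edgeR and 0 passed, with 8 at an unadjusted p-value under 0.05 and 4 past the threshold of DESeq2, and the median log2 fold change was -0.01. Over all genes the shares were 3.67% at an adjusted p-value under 0.05 by edgeR, 23.7% at an unadjusted p-value under 0.05 and 13.4% by DESeq2. In the 3′UTR there were 120 genes, of which 107 were tested by edgeR and 0 passed, with 31 at an unadjusted p-value under 0.05, 9 past the threshold of DESeq2 and a median of 0.02. The groups did not overlap for 7 of the 23 and 32 of the 107, beside 30.6% of all genes. Tfrc, with its several hairpins, was the only gene with a fully paired match in either UTR that passed by edgeR, where 3.67% of all genes passed. The search finds only hairpins of this exact form, so mRNAs with a hairpin of another form are not counted. Epas1, which fell, was not among the matches, which does not show that its mRNA lacks such a hairpin.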
